A study of Mus musculus with 6 samples.

Results

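The 47 genes described here encode proteins that drive, monitor or carry out cell division, from the cyclin B and CDK1 kinase through the kinetochore and spindle to the machinery that separates the daughter cells. They were taken by symbol from a table of 35688 gene rows. Kif11 alone had more than one row, and its row of higher or equal mean was kept. All 47 were found and all 47 passed the abundance filter, which kept 12257 rows. The study measured poly(A)-selected RNA of the mouse cell line m1102, derived from the ovarian surface epithelium, the layer that covers the ovary and is opened at ovulation. The 3 TGFB1 libraries came from cells exposed to 10 ng/mL TGFB1 for 4 days, and the 3 Control libraries from untreated cells of the same line. All were grown in medium with serum, an insulin supplement and EGF, so the controls were also under growth stimulation. The series title concerns COX2 and cell survival during repair of the ovulatory wound, and the comparison asks which transcripts differ after TGFB1. The labels do not say that libraries came from separately treated cultures, so p-values rest on the spread among these samples alone, and that spread may be technical. As 1 line was used, the results describe that line.

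Entry into mitosis depends on CDK1 bound to cyclin A or cyclin B, which CDC25 phosphatases switch on by removing inhibitory phosphates. The spindle checkpoint holds sister chromatids together until every kinetochore is attached, after which CDC20 activates the APC/C ubiquitin ligase, securin and cyclin B are destroyed and separase cuts cohesin. Transcripts of this machinery are made mainly in G2 and mitosis, under the MuvB complex with B-MYB and FOXM1, so their level in bulk RNA follows the number of dividing cells. TGFB1 is known as a cytokine that halts the division of many epithelial cells and stimulates that of some mesenchymal ones. In bulk RNA, fewer dividing cells and less RNA per dividing cell cannot be told apart.

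Values are abundances on the TPM scale as deposited, which correct for transcript length, and read depth is unknown. Of 17 markers of ovarian surface epithelium and mesothelium 13 passed the filter. Wt1, Krt7, Krt18, Msln and Upk3b were among them, while Krt8, Krt19, Cdh1 and Lhx9 were below it. The 17 summed to between 1373 and 1847 TPM in the treated libraries and between 2586 and 2753 TPM in the untreated ones. Endothelial markers summed to between 1.78 and 2.35 TPM with TGFB1 and between 1.17 and 1.33 TPM without it, with Kdr at or near 0. Of these 6 markers 1 passed the filter and was not called (log2 fold change 0.28). Immune markers summed to between 8.29 and 10.96 TPM with TGFB1 and between 19.4 and 27.2 TPM without it, most of it from Cd68, with Ptprc and Cd3e near 0. Among granulosa markers Foxl2, Inha and Inhbb were detected, whereas Fshr was listed at 0 and Cyp19a1 and Amh were near 0. Star, a steroidogenic marker, averaged 143 TPM with TGFB1 and 299.6 TPM without, with Lhcgr listed at 0. Of 6 theca and steroidogenic markers 2 passed the filter, with log2 fold changes of -1.15 and -0.68. The part of these markers in the results below was not tested. A pair of libraries stood apart. TGFB1 replicate 1 lay furthest from the untreated libraries over all genes, and Control replicate 2 had the lowest values of the 3 untreated libraries for each of the 47 genes, as described below.

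The promoters of these genes are shown because the members share short motifs there. The motifs were picked as textbook elements of the promoters of G2 and mitosis genes, so high shares in these members could be foreseen. Promoter windows of 300 bases, from 250 before to 50 after the RefSeq start on GRCm38.p6, were available for 38 of the 47. The CCAAT box is known as a site of NF-Y and TTTGAA as the core of the cell cycle homology region bound by MuvB. CCAAT, on either strand, occurred in 29 of the 38 windows (76.3%), against 39.9% of 8956 windows of tested genes. TTTGAA, on either strand, occurred in 28 of 38 (73.7%), against 11.7% of windows of tested genes and 18.1% of all 27025 windows. Both were found in 25 (65.8%), against 5.20% of windows of tested genes. Neither motif contains the other. In the listed lines, which give the 250 bases before the start, 5′ to 3′ on the gene's strand, capitals mark CCAAT and TTTGAA on either strand. Ccnb2 and Cdc25b were lower and Cenpe higher after TGFB1, and Cdk1, Plk1 and Top2a did not pass the test.
Ccnb2, chr9:70421555-70421804, minus strand: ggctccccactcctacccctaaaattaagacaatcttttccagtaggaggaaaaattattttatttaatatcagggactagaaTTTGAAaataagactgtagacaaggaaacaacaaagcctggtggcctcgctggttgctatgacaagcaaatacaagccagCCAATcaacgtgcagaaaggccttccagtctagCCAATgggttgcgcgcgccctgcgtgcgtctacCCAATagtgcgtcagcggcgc
Cdc25b, chr2:131186698-131186947, plus strand: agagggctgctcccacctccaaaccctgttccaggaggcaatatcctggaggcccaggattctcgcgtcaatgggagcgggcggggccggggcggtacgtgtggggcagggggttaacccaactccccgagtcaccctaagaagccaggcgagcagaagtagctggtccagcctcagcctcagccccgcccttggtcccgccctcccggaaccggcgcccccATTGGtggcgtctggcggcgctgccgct
Cenpe, chr3:135212313-135212562, plus strand: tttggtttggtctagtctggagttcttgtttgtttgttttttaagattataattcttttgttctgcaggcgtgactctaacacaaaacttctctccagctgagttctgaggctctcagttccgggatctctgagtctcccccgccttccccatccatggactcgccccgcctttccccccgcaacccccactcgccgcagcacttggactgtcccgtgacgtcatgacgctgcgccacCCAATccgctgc
Cdk1, chr10:69352913-69353162, minus strand: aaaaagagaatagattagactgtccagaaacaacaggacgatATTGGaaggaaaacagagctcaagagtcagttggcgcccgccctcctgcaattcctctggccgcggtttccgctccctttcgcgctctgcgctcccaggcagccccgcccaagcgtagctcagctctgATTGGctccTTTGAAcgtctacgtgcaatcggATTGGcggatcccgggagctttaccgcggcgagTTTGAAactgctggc
Plk1, chr7:122159185-122159434, plus strand: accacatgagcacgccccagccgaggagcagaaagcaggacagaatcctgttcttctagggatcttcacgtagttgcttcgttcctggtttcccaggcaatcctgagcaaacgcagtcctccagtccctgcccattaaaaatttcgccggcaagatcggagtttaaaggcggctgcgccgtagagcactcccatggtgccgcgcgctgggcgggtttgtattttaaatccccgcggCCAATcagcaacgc
Top2a, chr11:99024190-99024439, minus strand: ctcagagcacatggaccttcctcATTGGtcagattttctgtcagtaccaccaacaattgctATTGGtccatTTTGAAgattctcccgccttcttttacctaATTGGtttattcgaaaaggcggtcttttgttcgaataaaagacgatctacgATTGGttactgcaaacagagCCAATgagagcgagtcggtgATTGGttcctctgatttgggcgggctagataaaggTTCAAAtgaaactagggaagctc

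Ccnb2 has 3 CCAAT boxes before the start, and a further TTTGAA begins 5 bases into the transcript. Plk1 has its only TTTGAA at base 31 after the start. Cdk1 has 3 CCAAT boxes and 2 TTTGAA, and Top2a 6 and 2. No TTTGAA was found in the windows of Cdc25b and Cenpe, which says only that these letters are not there. In the windows of 68 other mitotic genes from a separate list the shares were 61.8% for CCAAT and 47.1% for TTTGAA, and in those of 42 DNA replication and G1/S genes 59.5% and 21.4%. Of 14 APC/C subunit genes, 5 held CCAAT and 2 TTTGAA. The median GC content was 59.3% in the windows of the members and 61.3% in those of all tested genes.

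After 4 days of TGFB1 the mitosis and spindle genes were mostly near their untreated level. Cdc25b, Ccnb2 and Smc4 were lower and Cenpe was higher, and the other 43 did not pass (limma, adjusted p under 0.05 over all tested genes). That is 4 of 47 (8.51%), where 30.4% of all tested genes were called. Of the 47, 1 was higher and 3 were lower, against 15.8% and 14.6% of tested genes. At an unadjusted p under 0.05 there were 7 members, the 4 called and Incenp, Mybl2 and Hjurp, beside 42.6% of tested genes. The median log2 fold change of the members was 0.03, beside 0.02 over all tested genes, with 27 above 0 and 20 below. No member changed 2-fold, whereas 5.76% of tested genes did. Fold changes are of TGFB1 over Control, as differences of log2(TPM + 1), so those of low genes come out too small.

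**Figure D1:**
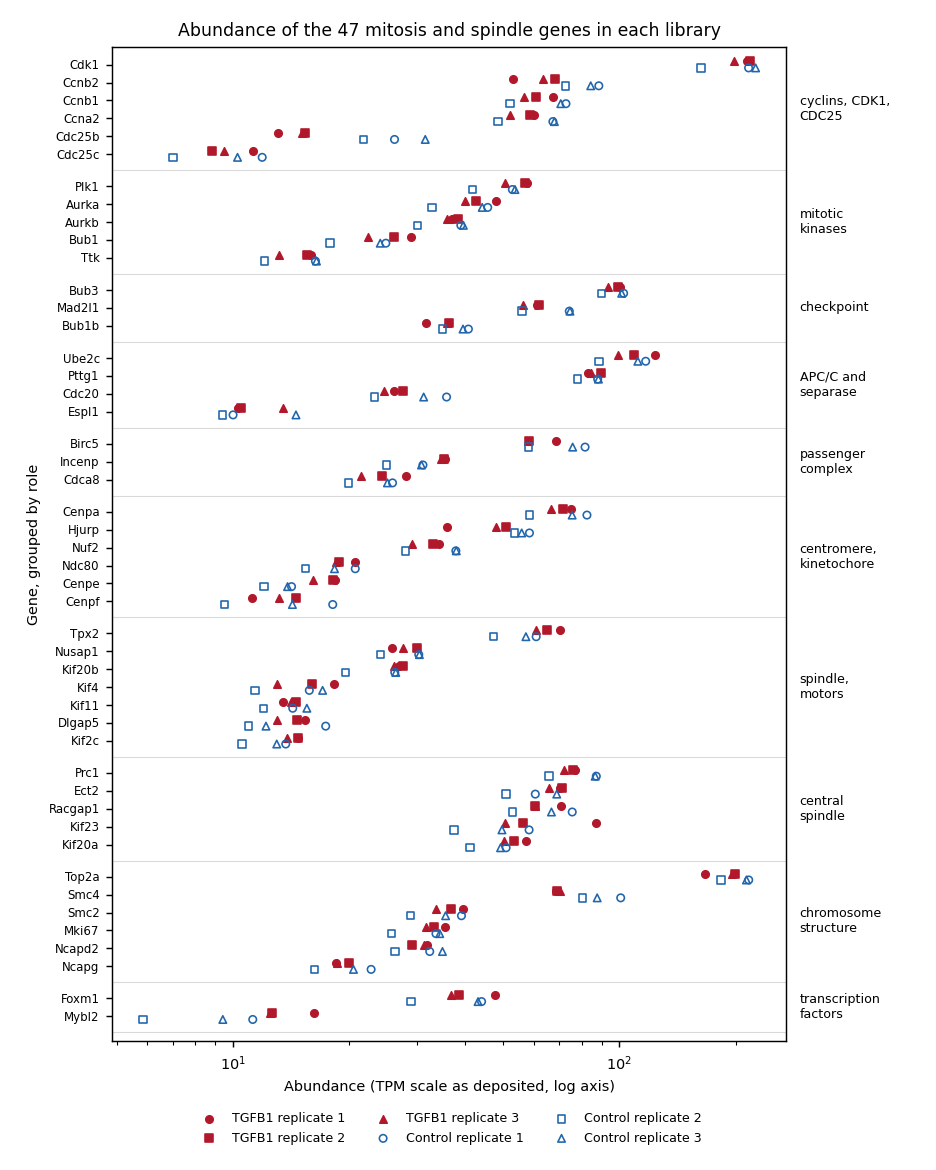
Abundance on the deposited TPM scale (x axis, log) of each of the 47 genes (y axis, grouped by role) in the 3 TGFB1 libraries (filled) and the 3 Control libraries (open), each point being a library. Control replicate 2, the open square, is the lowest of the untreated libraries for all 47 genes and the lowest of the 6 for 40 of them.

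A p-value that misses the threshold does not show that levels were alike, so intervals were computed. The 95% interval of the log2 fold change lay between -1 and 1 for 45 of the 47 genes, beside 85.8% of tested genes. The exceptions were Cdc25b and Mybl2. It lay between -0.5 and 0.5 for 33, beside 53.7%. The median half-width of the interval was 0.29 for the members and 0.24 for all tested genes. Summed over the 47, abundance was 2342, 2307 and 2168 TPM in the treated libraries, against 2512, 1940 and 2449 TPM in the untreated ones. The treated sums lie inside the untreated range, between Control replicate 2 and the other two. The means were 2272 ± 92.1 TPM with TGFB1 and 2300.5 ± 314 TPM without (SD, n = 3 per group, as for every mean below).

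Among the cyclins, CDK1 and its activating phosphatases, 2 of 6 were lower, a count too small to set against the 14.6% of all tested genes called lower. Cdc25b encodes a phosphatase that activates CDK1 at the entry into mitosis. It had 13.1, 15.4 and 15.1 TPM with TGFB1, against 26.2, 21.8 and 31.5 TPM without it. The groups did not overlap. The log2 fold change was -0.81 (SE 0.14, 95% interval -1.14 to -0.49, adjusted p = 0.0065), and the call held in each of the 17 alternative settings. The paralogue Cdc25c, which acts on the same kinase, averaged 9.88 ± 1.26 TPM with TGFB1 and 9.73 ± 2.50 TPM without, and its log2 fold change was 0.04.

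Ccnb2 encodes cyclin B2, a partner of CDK1. Its values were 53.0, 68.3 and 63.6 TPM with TGFB1, against 88.6, 72.7 and 84.4 TPM in untreated cells, again with no overlap. The log2 fold change was -0.41 (SE 0.12, adjusted p = 0.0374). This call was lost in 7 of 17 settings, among them those without TGFB1 replicate 3, Control replicate 1 or Control replicate 3, with an adjusted p up to 0.116. Ccnb1, which encodes the major mitotic cyclin B1, had 67.3, 60.9 and 56.8 TPM with TGFB1 and 72.8, 52.1 and 70.6 TPM without it. These ranges overlap, and the log2 fold change was -0.07 (95% interval -0.39 to 0.26). Of the Ccnb1 31-mers, 27.8% occur in another gene, foremost the pseudogene Ccnb1-ps, so its level is uncertain. Whether the cyclin B genes differ from each other in their response was not tested. Cdk1 itself was the most abundant of the 47, at 214, 218 and 198 TPM with TGFB1 and 216, 163 and 225 TPM in untreated cells. The untreated values enclose the treated ones (log2 fold change 0.07, 95% interval -0.23 to 0.37). Ccna2, the S and G2 cyclin A gene, averaged 57.1 ± 4.27 TPM with TGFB1 and 61.3 ± 11.04 TPM without (log2 fold change -0.09).

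None of the 5 mitotic kinase genes passed. Plk1, whose polo-like kinase acts in mitotic entry, centrosome maturation and cytokinesis, had 57.6, 57.1 and 50.5 TPM with TGFB1, against 52.9, 41.7 and 53.7 TPM without. The ranges overlap, with Control replicate 2 alone well below the rest. The log2 fold change was 0.16 (95% interval -0.11 to 0.42), and 18.7% of Plk1 31-mers also occur in another gene. Aurka and Aurkb, the kinases of the spindle poles and of the chromosomal passenger complex, were at 0.10 and 0.04 on the log2 scale. Bub1, a checkpoint kinase, was at 0.21 and Ttk, the kinase that starts checkpoint signalling, at 0.00. Aurkb averaged 37.0 ± 1.22 TPM with TGFB1 and 36.2 ± 5.27 TPM without it.

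The spindle checkpoint genes that are not active kinases did not pass either. Bub3, which recruits BUB1 and BUBR1 to kinetochores, had 100.4, 99.4 and 93.6 TPM in the treated libraries, against 103, 89.9 and 101 TPM in the untreated ones. These nearly coincide, and its interval was among the narrowest of the 47 (log2 fold change 0.00, 95% interval -0.17 to 0.17). Mad2l1, the inhibitor of CDC20, averaged 59.8 ± 3.10 TPM with TGFB1 and 68.3 ± 10.6 TPM without. It did not pass with all libraries (log2 fold change -0.18), but did without Control replicate 2 (-0.31, adjusted p = 0.0350). Bub1b, which encodes BUBR1, was at -0.15.

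Among the APC/C activator, ubiquitin enzyme and separase genes 0 of 4 passed. Ube2c, the ubiquitin-conjugating enzyme of the APC/C, had 123, 109 and 99.4 TPM with TGFB1 and 117, 88.8 and 112 TPM without it. The ranges overlap, and the log2 fold change was 0.07 (95% interval -0.23 to 0.36). Of the Ube2c 31-mers, 25.3% occur in another gene on either strand, foremost Tnnc2, whose exons overlap it on the other strand. Its level is uncertain, above all if reads were not assigned by strand, on which the sources say nothing. Pttg1, which encodes securin, stayed within a narrow range, 85.9 ± 3.42 TPM with TGFB1 and 84.8 ± 5.88 TPM without (95% interval of the log2 fold change -0.15 to 0.19). Cdc20 was at -0.18 and Espl1, the separase gene, at 0.03. Cdc20 shares 26.7% of its 31-mers with other genes.

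The chromosomal passenger complex holds AURKB with INCENP, survivin and borealin at centromeres and later at the central spindle. Birc5, the survivin gene, had 68.8, 58.5 and 58.2 TPM with TGFB1, against 81.6, 58.2 and 75.8 TPM without. Control replicate 2 lies with the treated libraries here and the other two controls above them. The log2 fold change was -0.20 (95% interval -0.53 to 0.12). Incenp had 35.4, 35.3 and 34.5 TPM with TGFB1, against 31.04, 25.02 and 30.8 TPM without, and the groups did not overlap. It missed the threshold (log2 fold change 0.27, 95% interval 0.05 to 0.49, adjusted p = 0.0649). Cdca8, the borealin gene, was at 0.06.

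At the centromere and kinetochore Cenpe was higher and the other 5 did not pass. CENP-E is the kinesin that carries chromosomes to the spindle equator. Cenpe had 18.3, 18.1 and 16.2 TPM in the treated libraries, against 14.2, 12.04 and 13.9 TPM in the untreated ones, with no overlap. The log2 fold change was 0.37 (SE 0.09, 95% interval 0.15 to 0.59, adjusted p = 0.0239). The call was lost without TGFB1 replicate 2, Control replicate 2 or Control replicate 3, without Control replicate 2 and TGFB1 replicate 1 together, and with no filter (largest adjusted p 0.0762). Cenpa, the centromeric histone H3 variant, had 75, 71.5 and 66.6 TPM with TGFB1 and 82.5, 58.6 and 75.6 TPM without it. The groups overlap and the log2 fold change was -0.01 (95% interval -0.31 to 0.29). Hjurp, the chaperone that loads CENP-A, had 35.9, 50.8 and 48.0 TPM with TGFB1, against 58.6, 53.6 and 55.9 TPM without. The groups did not overlap, although TGFB1 replicate 1 lay far below the other treated libraries, and the log2 fold change of -0.33 missed the threshold (adjusted p = 0.1004; -0.18 without TGFB1 replicate 1). Ndc80 and Nuf2, partners in the complex that grips microtubules, were at 0.10 and -0.09, and Cenpf at -0.06.

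Spindle assembly factors and motors gave 0 calls in 7. Tpx2, which activates AURKA on spindle microtubules, had 70.4, 64.9 and 60.8 TPM with TGFB1, against 61.0, 47.3 and 57.3 TPM without. The lowest treated value lay just below the highest untreated one, so the groups overlap slightly. The log2 fold change was 0.25 (95% interval -0.01 to 0.50, adjusted p = 0.128). Kif11, the motor that pushes spindle poles apart, averaged 14.1 ± 0.558 TPM with TGFB1 and 13.9 ± 1.80 TPM without, and a second row of the table carries the same 6 values. Kif2c, a microtubule depolymerase at centromeres, averaged 14.4 ± 0.544 TPM with TGFB1 and 12.4 ± 1.65 TPM without. Its groups did not overlap, yet the log2 fold change of 0.21 missed the threshold (adjusted p = 0.179). The remaining log2 fold changes were 0.16 for Kif20b, 0.10 for Kif4, 0.10 for Dlgap5 and -0.02 for Nusap1.

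The 5 genes of the central spindle and cytokinesis did not pass. Prc1, which bundles antiparallel microtubules in the midzone, had 76.8, 76.0 and 71.8 TPM with TGFB1, against 87.2, 65.9 and 86.6 TPM without. The treated values lie close together in the gap between Control replicate 2 and the other two controls (log2 fold change -0.08). Kif23, a motor of the centralspindlin complex, had 87.1, 56.2 and 50.5 TPM with TGFB1 and 58.4, 37.3 and 49.7 TPM without it. Its fold change rested on single libraries, being 0.39 with all libraries, 0.16 without TGFB1 replicate 1 and 0.22 without Control replicate 2. Ect2, the activator of RhoA at the cleavage furrow, was at 0.20, Kif20a at 0.19 and Racgap1 at -0.01. Kif20a overlaps Cdc23 on the other strand and shares 26.7% of its 31-mers, foremost with it.

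Among genes of chromosome structure Smc4, an ATPase subunit of condensin, was lower. It had 68.5, 69.1 and 70.2 TPM with TGFB1, against 101, 80.4 and 87.7 TPM without, so the treated values were nearly equal and all below the untreated ones. The log2 fold change was -0.36 (SE 0.09, 95% interval -0.57 to -0.15, adjusted p = 0.0224), a call lost without TGFB1 replicate 2, TGFB1 replicate 3 or Control replicate 3 (adjusted p up to 0.0677). Smc2, the partner ATPase, averaged 36.6 ± 2.90 TPM with TGFB1 and 34.5 ± 5.18 TPM without (log2 fold change 0.09), and the condensin subunit genes Ncapd2 and Ncapg were at -0.01 and -0.05. The mean of Smc4 over the 6 libraries, 79.5 TPM, was above that of Smc2, 35.5 TPM. Top2a, the topoisomerase that untangles sister chromatids, had 167, 199 and 195 TPM with TGFB1 and 216, 184 and 213 TPM without it. These overlap (log2 fold change -0.13, 95% interval -0.36 to 0.10). Mki67, the antigen Ki-67 that coats mitotic chromosomes and marks cycling cells, had 35.4, 33.2 and 31.7 TPM with TGFB1, against 33.5, 25.7 and 34.3 TPM without. The treated values lie around those of Control replicates 1 and 3, and the log2 fold change was 0.11 (95% interval -0.17 to 0.39).

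FOXM1 and B-MYB are the transcription factors of this programme. Foxm1 had 47.8, 38.5 and 36.6 TPM with TGFB1 and 44.0, 28.9 and 43.1 TPM without it, which overlap (log2 fold change 0.10, 95% interval -0.33 to 0.52). Mybl2, which encodes B-MYB, had 16.2, 12.6 and 12.5 TPM with TGFB1, against 11.3, 5.85 and 9.42 TPM without. The groups did not overlap, with the lowest value in Control replicate 2, and the log2 fold change of 0.62 missed the threshold (95% interval 0.10 to 1.14, adjusted p = 0.0748). It was 0.38 without Control replicate 2. Mybl2 shares 21.1% of its 31-mers with other genes. In all, 8 of the 47 genes had groups with no overlap (17.02%), beside 49.8% of tested genes. Without TGFB1 replicate 3 or without Control replicate 3, Cdc25b was the only one of the 47 called lower. After rescaling without mitochondrial genes and the 20 most abundant ones, 62.7% of all calls were higher, compared with 52.0% as reported, and 2 members were higher and 2 lower.

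**Figure D2:**
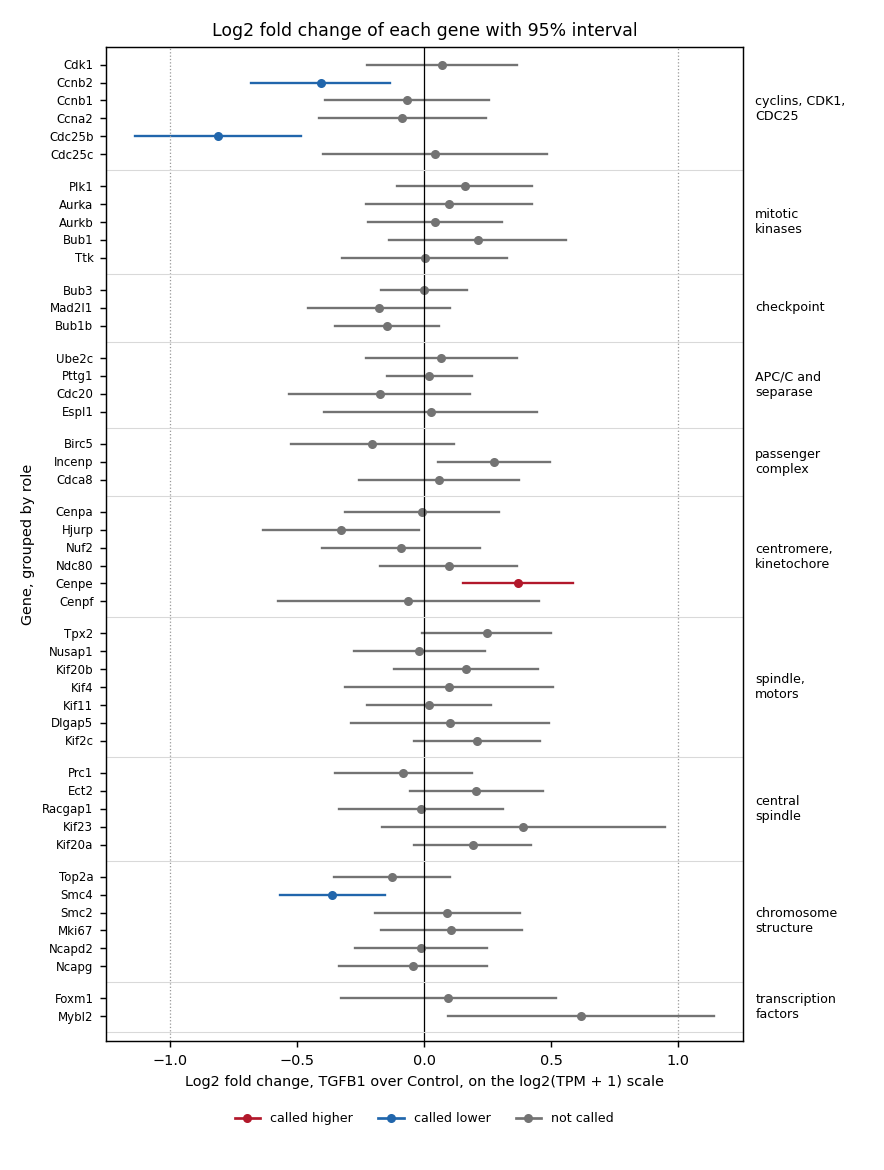
Log2 fold change of TGFB1 over Control (x axis, points) with its 95% limma interval (lines) for the 47 genes (y axis, grouped by role). Cdc25b, at -0.81, lies furthest from 0, and Cdc25b and Mybl2 are the only intervals that reach past -1 or 1.

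The spread between the untreated libraries was large for these genes and ran the same way in all of them. Control replicate 2 was the lowest of the 3 controls for 47 of 47 genes, where it was the lowest for 33.1% of tested genes. It was the lowest of all 6 libraries for 40, against 17.998% of tested genes. The median gene of the 47 lay 0.38 log2 units below the mean of the other two controls in that library, while the median over all tested genes was 0.02 above. Control replicates 1 and 3 were close to each other, with a median coefficient of variation of 3.28% between them. Over all 3 controls it was 15.3%, and over the treated libraries 7.48%, so 43 of 47 genes varied more among controls. For all tested genes the medians were 9.16% with TGFB1 and 7.54% in controls.

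The same library was low for other genes that are made during the cell cycle. It was the lowest control for 77 of 82 other mitotic genes and for 50 of 52 DNA replication and G1/S genes, with medians of -0.32 in both lists. It was not so for APC/C subunits, of which it was the lowest control for 4 of 15 (median deviation 0.02), and for cohesin it was for 7 of 12 (median -0.03). Among treated libraries the median member deviated by 0.09, 0.04 and -0.11 in replicates 1, 2 and 3.

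**Figure D3:**
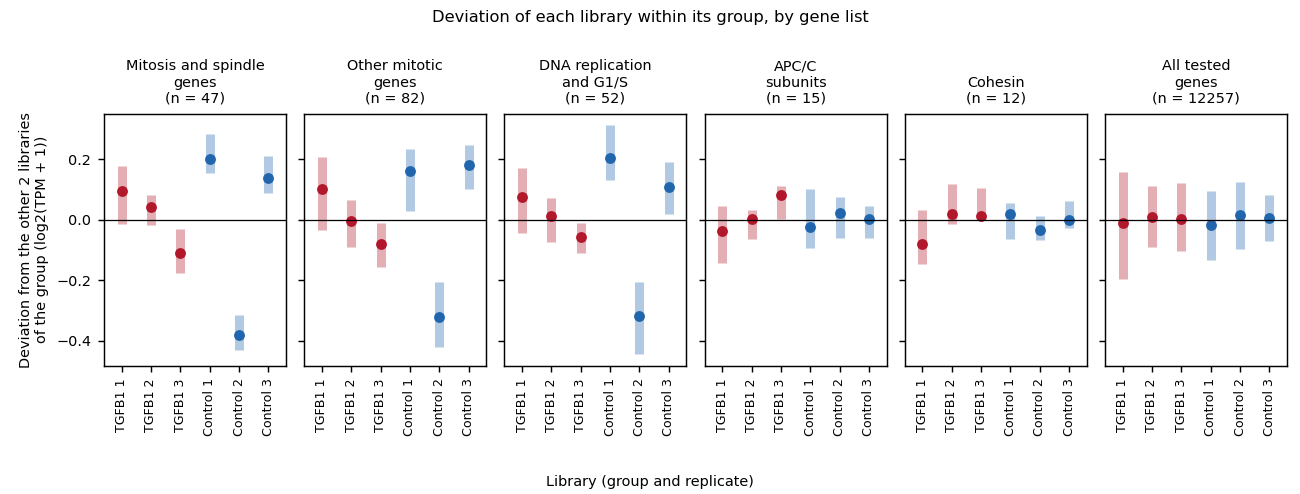
Deviation of each library from the mean of the other two libraries of its group, in log2(TPM + 1) units (y axis), for 5 gene lists and all tested genes (panels); points are medians over the genes and bars the quartiles. In the mitosis and spindle genes Control 2 stands at -0.38, and near 0 in the APC/C subunits, cohesin and all tested genes.

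Across the 6 libraries most members moved together. The correlation of a gene's log2 value with the mean standardized value of the other members had a median of 0.83 and was above 0.5 for 39 of 47, as a description over 6 libraries in which Control replicate 2 carries much of the variation. Cenpa (0.97), Aurkb (0.97) and Bub3 (0.97) followed the rest most closely. Hjurp (-0.03), Cdc25b (0.14), Ccnb2 (0.19), Smc4 (0.26) and Espl1 (0.28) followed it least. Taken relative to the median member of each library, which removes the common shift, Cdc25b was 0.84 log2 units lower with TGFB1, and Mybl2 was 0.59 higher. Ccnb2, Smc4 and Hjurp were lower by 0.43, 0.39 and 0.35 on that scale and Cenpe higher by 0.34. Kif23, whose groups overlap on that scale, was higher by 0.36. These relative values are descriptions and were not tested.

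Because Control replicate 2 widens the untreated group, the counts of calls were also taken without it. Then 4 members were lower (Ccnb2, Cdc25b, Mad2l1 and Smc4) and 0 higher, against 9.18% and 11% of tested genes (20.2% in either direction). An unadjusted p under 0.05 was reached by 12 of the 47 (25.5%), beside 37.2% of tested genes in that fit. Fold changes were below 0 on the log2 scale for 36 of 47, compared with 20 with all libraries, and for 47.9% of tested genes. As that library was the lowest control for all 47 genes, leaving it out lowers each of their fold changes by construction. The median was -0.08 and the ratio of summed TPM 0.92, compared with 0.99 with all libraries. All 3 treated libraries lay below both remaining controls for 20 of 47 genes (42.6%, beside 27.3% of tested genes) and above both for 4 (8.51%, beside 30.3%). With TGFB1 replicate 1 also left out, a comparison of 2 libraries with 2 that was chosen after the data were seen, 12 members were lower and 0 higher, against 16.8% and 17.6% of tested genes (34.3% in either direction). The 12 were Ccna2, Ccnb1, Ccnb2, Cdc25b, Mad2l1, Cdc20, Birc5, Hjurp, Nuf2, Prc1, Smc4 and Foxm1. Their log2 fold changes in that fit ran from -0.87 for Cdc25b to -0.21 for Hjurp and Foxm1. TGFB1 replicate 1 lay above the mean of the other treated libraries for 34 of the 47 genes. Leaving it out lowers those fold changes by construction too. Over all tested genes its median deviation was -0.01 and that of Control replicate 2 was 0.02. The shares of tested genes are therefore not lowered in the same way. Leaving out TGFB1 replicate 1 alone left the same 4 calls. What set Control replicate 2 apart was not tested. With all libraries the median log2 fold change of the members was 0.03, beside 0.02 over all tested genes. Without TGFB1 replicate 1 alone the member median was -0.01, so its sign does not rest on Control replicate 2 only.

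**Figure D4:**
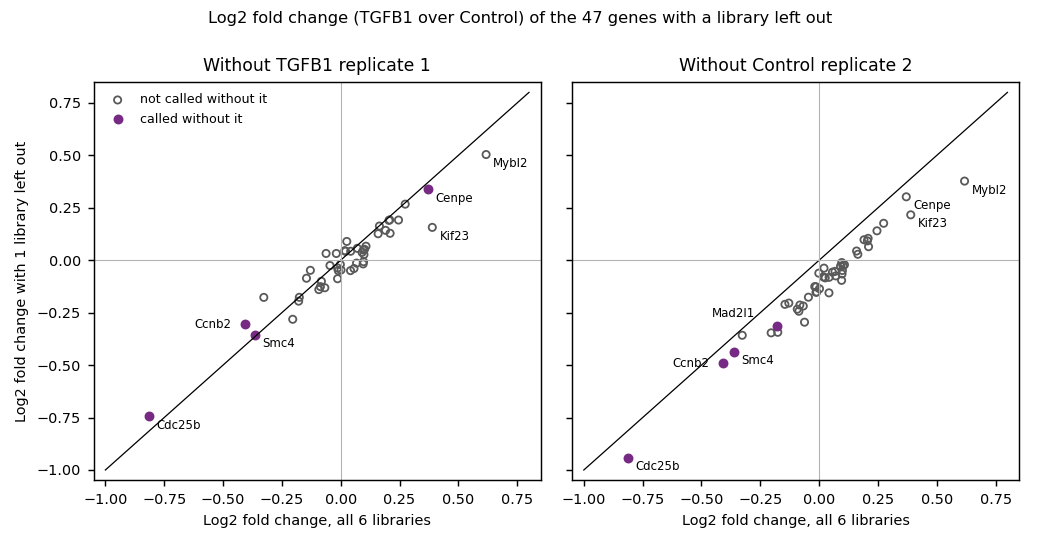
Log2 fold change (TGFB1 over Control) of the 47 genes with 1 library left out (y axis) against that with all 6 libraries (x axis); filled points passed the test without the library and the line marks equality. Without Control replicate 2, the lowest control for all 47, every point must lie under the line, and 36 of 47 are below 0, compared with 20 with all libraries. Without TGFB1 replicate 1 most points stay near the line.

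Further genes of the division machinery, from lists that also were drawn up with earlier results of these data known, were examined in the same way. Of 82 other mitotic genes 7 were higher (8.54%) and 1 was lower (1.22%), beside 15.8% and 14.6% of all tested genes. In either direction 9.76% were called, below the 30.4% of all tested genes. The untreated libraries also spread more in this list, with a median coefficient of variation of 14.6% beside 7.54% for all tested genes. Its part in the low share was not tested. The largest changes were those of Cenpm, a kinetochore gene (10.7 ± 3.38 TPM with TGFB1 and 17.9 ± 0.904 TPM without, log2 fold change -0.73), and Cenpt, which links centromeric chromatin to the NDC80 complex (25.6 ± 2.57 TPM with TGFB1 and 15.2 ± 2.28 TPM without, log2 fold change 0.72). Lmnb1, the lamin B1 gene, rose by 0.69 on the log2 scale and Zwint, a kinetochore gene, by 0.48. Cenpm missed the threshold without TGFB1 replicate 3, with any single control left out and with no filter (largest adjusted p 0.1099). The calls of Cenpt, Lmnb1 and Zwint held in all 17 settings.

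Of 52 DNA replication and G1/S genes 7 were higher (13.5%) and 2 lower (3.85%), beside 15.8% and 14.6% of all tested genes. In either direction 17.3% were called, below the 30.4% of all tested genes. Here too the untreated spread was larger, with a median coefficient of variation of 14.8% beside 7.54% for all tested genes, and its part was not tested. Ccne1 and Ccne2, the cyclin E genes that drive entry into S phase, rose in all settings, to 18.2 ± 2.40 TPM with TGFB1 against 10.4 ± 1.52 TPM without for Ccne1, and to 23.1 ± 3.15 TPM with TGFB1 against 14.2 ± 1.49 TPM without for Ccne2. Rrm2, a subunit of ribonucleotide reductase, rose by 0.83 on the log2 scale and the repressor gene E2f7 by 0.52. Rrm2 missed the threshold with Control replicate 2 or 3 left out and with no filter (largest adjusted p 0.0676). The E2f7 call was lost in 9 of 17 settings, every one that left out a single library included (adjusted p up to 0.111).

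Of 15 APC/C genes 2 were higher and 2 lower (26.7% called, near the 30.4% of all tested genes). Anapc1, the scaffold subunit, averaged 84.7 ± 7.44 TPM with TGFB1 and 143 ± 5.68 TPM without (log2 fold change -0.75), and Anapc13 averaged 213 ± 29.9 TPM with TGFB1 and 329 ± 9.07 TPM without (log2 fold change -0.64). Cdc16 rose by 0.33, a call lost with any single control left out. Cdc27 rose by 0.19 and was called in only 9 of 17 settings. That call was lost with any single control, TGFB1 replicate 2 or TGFB1 replicate 3 left out. Of 12 cohesin genes 2 were lower (16.7%, beside 14.6% of tested genes) and 0 higher. An unadjusted p under 0.05 was reached by 3 of the 12, beside 42.6% of tested genes. The called genes were Smc1a and Stag1 (log2 fold changes -0.29 and -0.32), both calls lost without Control replicate 3 and that of Smc1a also without TGFB1 replicate 2. Whether these lists differ from the mitosis and spindle genes was not tested.

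**Figure D5:**
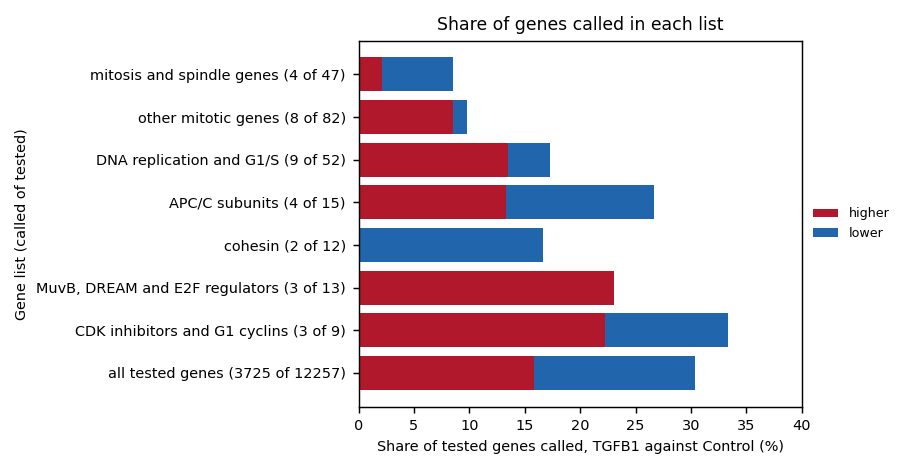
Share of tested genes called higher or lower with TGFB1 (x axis, percent) in each gene list and in all tested genes (y axis, called of tested in brackets). The mitosis and spindle genes are at 8.51% and all tested genes at 30.4%.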

How the data were processed

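RNA was measured in 3 TGFB1 and 3 Control libraries of m1102 cells. Per the labels' protocols, each library took 250 ng of total RNA, converted by a directional kit after poly(A) enrichment. Per the submitters' processing notes, GRCm38, sleuth 0.30.0 and kallisto 0.44.0 were used, in roles not stated. The deposited table holds a TPM-scale signal per gene. Its column totals differ (983434 to 1026702), so it is not plain TPM, and for the authors' scaling, annotation and use of strand the sources used here say nothing. Without counts, depth cannot be stated and counting error is not computed. Columns were tied to samples by group and replicate number in their names, which also carry an unexplained prefix, Mono.

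The 12257 rows whose mean over the 6 libraries reached 1 TPM were tested on log2(TPM + 1) with limma 3.58.1 in R 4.3.3 (eBayes with an intensity trend), two-sided, with Benjamini-Hochberg adjustment over all of them and calls at an adjusted p under 0.05. Intervals are limma's 95% intervals. The step was tested on simulated data. All 47 members are described, with values in every library for called genes, the most abundant gene of each role and Mki67, Ccnb1, Cdk1, Top2a, Birc5, Foxm1 and Bub3. Values per library of Hjurp, Incenp, Mybl2 and Kif23 are given as well, a choice made after they were seen. From each other list up to 4 called genes are named, by size of change. The members, lists and rules were chosen with earlier results of these data known, so no list was tested as a set.

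The share of each member's 31-mers found in another gene, and exon overlap, came from GENCODE M21 (GRCm38) transcripts, in which all 47 gene IDs matched. A 31-mer counted as shared if it or its reverse complement occurred in another gene. Promoter windows are from RefSeq on GRCm38.p6, the first listed window of each gene. No window was given for Aurkb, Ccna2, Cdc25c, Dlgap5, Foxm1, Incenp, Kif20a, Smc4 and Tpx2. Motif search used Python 3.11.15. Alternatives changed the pseudocount, filter, scaling, trend, replicate block and the libraries used.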

Additional observations from a re-analysis of the deposited data

How the results depend on the processing

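Over 17 alternative settings, 772 of 799 log2 fold changes of the 47 genes kept their direction where called and their side of the threshold. In 15 a call was lost and in 11 one was gained, 8 of these in the fit without Control replicate 2 and TGFB1 replicate 1, which was added after the data were seen. Foxm1 turned from 0.10 to a called -0.21 in that fit, when 0 members were higher and 12 lower. In the 6 other lists, of 82, 52, 15, 13, 12 and 9 tested genes, 24 genes were lower in that fit. The share of all tested genes called lower there was 16.8%. With no filter 0 members were higher and 12 genes of the other lists were (21 as reported), while the share of all tested genes called was 12.4%, compared with 30.4% as reported. When column totals left out mitochondrial genes and the top 20 genes, 2 members were higher (Incenp and Cenpe). With 1 library left out, between 0 and 1 members were higher and between 1 and 4 lower, and in the other lists 8 to 20 genes were higher (fewest without Control replicate 2) and 2 to 11 lower (fewest without Control replicate 3), while 16.6% to 32.2% of all tested genes were called. The cause was not tested. The median log2 fold change of the members ran from -0.12 to 0.10 and the ratio of their summed TPM from 0.902 to 1.04. With the replicate number as a block 2 members were higher (Cenpe and Mybl2) and 2 lower (Cdc25b and Smc4). Same-numbered libraries deviated with correlations of 0.20, 0.15 and -0.04 for replicates 1, 2 and 3. TGFB1 replicates 1 and 2 correlated best with the control of their own number, and TGFB1 replicate 3 with Control replicate 2 (0.18). Deviations within so small a group depend on each other, so these values cannot tell whether the numbers pair the libraries. Depth is unknown, so the limit it sets for the least abundant members cannot be stated.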

Other observations

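Genes that act upstream of the mitotic programme were also measured. Of 13 regulators in the MuvB, DREAM and E2F list 3 were higher with TGFB1 and 0 lower (limma, adjusted p under 0.05). That is 23.1% called, below the 30.4% of all tested genes. An unadjusted p under 0.05 was found for 5 of the 13, beside 42.6% of tested genes. Rb1, the retinoblastoma gene, had 26.2, 18.9 and 16.9 TPM in the treated libraries, against 5.77, 6.70 and 4.75 TPM in the untreated ones. The groups lie far apart, the log2 fold change was 1.67 (SE 0.18, adjusted p = 0.00143), and the call held in all 17 settings. Mybl1, the A-MYB gene, rose by 0.80 on the log2 scale, but missed the threshold with Control replicate 2 or 3 left out and with no filter (largest adjusted p 0.0576). E2f5 rose by 0.31, a call lost in 10 of 17 settings, every one that left out a single library included.

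Among CDK inhibitors and G1 cyclins 9 of 13 genes were tested, 2 were higher and 1 was lower, or 33.3% called, near the 30.4% of all tested genes. Cdkn1a, the p21 gene, had 231, 159 and 159 TPM with TGFB1, against 102, 76.0 and 87.8 TPM without, and the groups did not overlap (log2 fold change 1.025, adjusted p = 0.00633, called in all 17 settings). Its lowest untreated value was that of Control replicate 2, as for 5 of the 9 tested genes of this list and 33.1% of all tested genes. Ccnd3 rose by 0.26 and Cdkn2c fell by 0.32 on the log2 scale, calls lost in 11 and 8 of 17 settings. Cdkn2a, Cdkn2b and Cdkn1c, inhibitor genes of which Cdkn2b is a known TGFB1 target, were listed at 0 in every library. Ccnd1 was under the filter, at 0.478 ± 0.101 TPM with TGFB1 and 0.358 ± 0.0354 TPM without, while Ccnd2 averaged 104 ± 13.3 TPM with TGFB1 and 106 ± 2.33 TPM without.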
